A study of Danio rerio with 4 samples.

Results

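The genes described here are 8 genes grouped as neuronal synapse and axon genes, with roles in neuronal RNA control, the axon, the synapse, fatty acid transport and the endoplasmic reticulum. They were selected by symbol: a probe set is included when the array annotation gives it a single gene symbol and that symbol is elavl3, stmn2a, snap25a, snap25b, cplx2a, fabp7a, fabp3 or rtn1a. These genes were chosen with earlier results of these data known, so counts over them are no support for a direction. The 8 genes, of 8793 genes named on the array, are measured by 12 probe sets. elavl3 has 4 probe sets, rtn1a has 2, and the other 6 genes have 1 each. Every probe set is given separately. The morphant group is 2 arrays of RNA from zebrafish (Danio rerio) embryos that had received a miR-34b morpholino, and the control group is 2 arrays from embryos that had received a control morpholino. A morpholino is a synthetic antisense oligomer that binds an RNA and keeps it from being processed or read. In both groups the embryos were of strain AB background, carried the transgene Tg(cmyb:EGFP), in which the cmyb promoter drives a green fluorescent protein, and were 3 days past fertilization. For every array, 20000 GFP-positive cells were sorted from dissected tissue that contained the kidney, and the labels call them kidney multiciliated cells. The labels do not say how many embryos were pooled for a sort. The design speaks of independent biological sets. The standard errors (SE) and p-values of the limma test combine the spread between these 4 arrays with a variance estimated over all probe sets tested. The comparison asks which transcripts differ in the sorted cells when miR-34b is targeted.

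Neurons are known by a small set of abundant transcripts. Proteins of the ELAV family bind AU-rich stretches of messenger RNAs and steer their splicing, stability and translation, and elavl3 (HuC) is a standard marker of newly formed neurons in zebrafish. Stathmins regulate the growth of microtubules in growing axons. At the nerve ending, SNAP-25 joins syntaxin and synaptobrevin in the SNARE complex that fuses synaptic vesicles with the membrane, and complexins bind that complex and hold it ready for calcium. Fatty acid binding proteins carry lipids in the cytosol, and reticulons bend the membranes of the endoplasmic reticulum. fabp3 and the reticulons are also used by cells other than neurons.

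Signals were first set against array controls and cell type markers. Of the 12 probe sets, all lay on every array above the 20 array controls for sequences absent from zebrafish, called background controls below. The lowest of their signals was 5.24 (log2), and the brightest of those controls reached between 3.71 and 4.93 on the 4 arrays. Transcripts used as markers of multiciliated cells, such as the axonemal gene tekt1, were also present (12.19 and 12.02 on the morphant arrays, 9.88 and 9.74 on the control arrays, log2 signal). Summed linear signals of 6 such markers were 14441 and 13681 on the morphant arrays and 3998 and 3913 on the control arrays. Those of 9 skeletal muscle markers were 96021 and 74322 on the morphant arrays and 116289 and 90413 on the control arrays. Sums over different genes do not rank cell types by their amount of RNA. Whether the sorted cells were all of the labelled type was not tested. The annotation names 0 probe sets for miR-34 genes, so the targeted RNA was not followed. The arrays differed little in their overall level, with a median log2 signal of 7.29 and 7.23 on the morphant arrays and 7.18 and 7.19 on the control arrays. The poly-A spike-in controls were dimmest on morphant replicate 2, at a mean log2 signal of 8.73, against 9.53 on morphant replicate 1 and 9.93 and 9.92 on the control arrays. Its acta1 3′ minus 5′ signal was 3.39, against 2.38 on morphant replicate 1 and 2.54 and 2.47 on the control arrays. For GAPDH the 3′ minus 5′ signal did not set it apart. It was 0.94 on morphant replicate 2, 0.36 on morphant replicate 1, and 1.02 and 0.88 on the control arrays.

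elavl3, stmn2a, snap25a, snap25b and cplx2a were above the controls on both morphant arrays in at least 1 probe set, and fabp3 and rtn1a were below them. fabp7a overlapped between the groups. In limma's test over 11626 probe sets, 0 of the 12 passed a Benjamini-Hochberg adjusted p of 0.05, and 6 had an unadjusted p under 0.05, all of them higher in the morphants. Under 5 of 16 alternative settings 1 or 2 of the 12 passed, and under the other 11 it was 0. Over all probe sets tested, 304 passed (2.61%), 290 as higher (2.49%) and 14 as lower (0.120%). The shares at unadjusted p under 0.05 were 11.6% for higher and 6.10% for lower signals. Leaving out morphant replicate 1 or morphant replicate 2 gave 0 calls over all probe sets in limma, with 1089 or 1276 higher and 828 or 727 lower before adjustment at the same threshold. Leaving out control replicate 1 or 2 gave 47 or 53 higher calls. The groups did not overlap in 7 of the 12 as higher and in 3 as lower, where 25.1% of all probe sets tested were separate and higher and 24.7% separate and lower. The lower share is that of the background. The median difference of the 12 was 0.51 (log2), against −0.02 for all probe sets tested. With 2 arrays in a group, an exact two-sided permutation test of a single value cannot go below p = 0.333. In sorted cells measured in bulk, fewer cells of a type and less RNA per cell cannot be told apart.

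**Figure D1:**
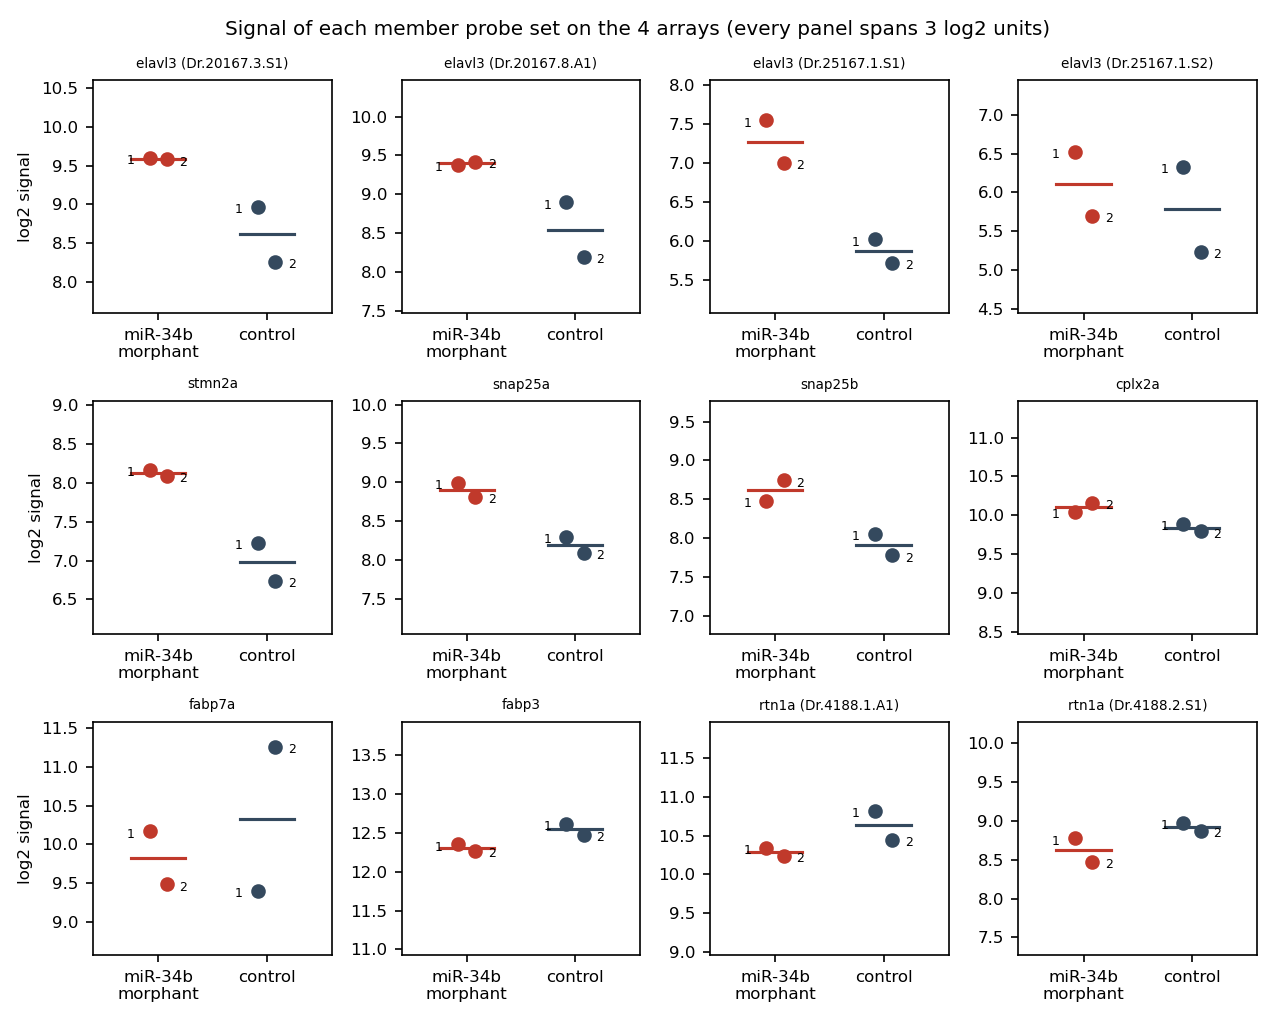
Log2 signal of the 12 probe sets on each array, with 2 miR-34b morphant arrays on the left of a panel and 2 control arrays on the right. Points carry the replicate number, the bar is the group mean, and every panel spans the same number of log2 units. The groups are separate in 10 panels and overlap in fabp7a and in elavl3 probe set Dr.25167.1.S2.

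elavl3 was higher in the morphants in 3 of its 4 probe sets by separation of the arrays, by 1.81-fold to 2.66-fold, and none of them passed the test. Over all probe sets tested, 25.1% were separate and higher. Probe set Dr.20167.3.S1_at had log2 signals of 9.60 and 9.58 on the morphant arrays and 8.97 and 8.26 on the control arrays. Both morphant arrays stood above both controls, and the controls lay further apart than the morphants. Its difference was 0.98 ± 0.27 (SE, n = 2 each; adjusted p = 0.158 in limma), or 1.97-fold with a 95% interval of 1.23 to 3.16, and it was 0.62 without control replicate 2.

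In elavl3 probe set Dr.20167.8.A1_at the signals were 9.38 and 9.42 on the morphant arrays and 8.90 and 8.19 on the control arrays. Again control replicate 2 was the low array. The elavl3 difference there was 0.86 ± 0.27 (SE, limma adjusted p = 0.198), and 0.50 without that array. The third elavl3 probe set, Dr.25167.1.S1_at, had 7.55 and 7.003 on the morphant arrays and 6.02 and 5.71 on the control arrays. The smallest gap between a morphant and a control array was 0.984, the widest of the 12 probe sets. The difference was 1.41 ± 0.25 (SE, limma adjusted p = 0.0618), or 2.66-fold, and by p-value it stood at rank 376 of the 11626 probe sets, where the last call was at rank 304. It passed in 4 of 15 alternative settings, among them a pseudocount of 64 (0.84, adjusted p = 0.0339), which shrinks the differences of dim probe sets.

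The remaining elavl3 probe set, Dr.25167.1.S2_at, had 6.53 and 5.70 on the morphant arrays and 6.33 and 5.24 on the control arrays. Here the groups overlapped, and replicate 2 was the low array in both. Its elavl3 difference of 0.33 ± 0.45 (SE, limma adjusted p = 0.764) had a 95% interval of −0.81 to 1.47, and it was −0.08 or 0.75 when morphant replicate 1 or 2 was left out and 0.88 or −0.21 when control replicate 1 or 2 was. The 4 probe sets of elavl3 therefore gave differences between 0.33 and 1.41, and which part of the transcript each one reads was not tested. The overlapping Dr.25167.1.S2_at is the only one of the 4 annotated with a RefSeq messenger RNA. Its name carries the same transcript number as Dr.25167.1.S1_at, which had the largest difference.

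stmn2a, the stathmin of growing axons, was higher on both morphant arrays. Its single probe set had log2 signals of 8.17 and 8.09 on the morphant arrays and 7.23 and 6.73 on the control arrays. The groups were 0.865 apart at their closest arrays, and the morphant arrays differed from each other by 0.08, against 0.49 between the controls. The stmn2a difference was 1.15 ± 0.22 (SE, n = 2 each), or 2.22-fold with a 95% interval of 1.51 to 3.26, and it did not pass (limma adjusted p = 0.0726, rank 464 by p-value). It passed in 4 of 16 alternative settings, such as a pseudocount of 64 (0.85, adjusted p = 0.0246).

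The SNARE genes snap25a and snap25b, paralogs that encode SNAP-25, were higher in the morphants by nearly the same amount. The signal of snap25a was 8.99 and 8.81 on the morphant arrays and 8.29 and 8.09 on the control arrays. That of snap25b was 8.48 and 8.74 on the morphant arrays and 8.05 and 7.78 on the control arrays. In both paralogs the groups were separate, by 0.522 in snap25a and by 0.43 in snap25b.

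The difference of snap25a was 0.71 ± 0.18 (SE, 1.64-fold, 95% interval 1.198 to 2.24, limma adjusted p = 0.131). For snap25b it was 0.70 ± 0.20 (SE, 1.62-fold, 95% interval 1.15 to 2.29, limma adjusted p = 0.164). The snap25a minus snap25b signal was 0.51 and 0.07 on the morphant arrays and 0.24 and 0.31 on the control arrays, so the groups overlapped in it (exact two-sided permutation p = 1, where the smallest possible is 0.333). Whether the probes of one paralog also bind the other was not tested.

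cplx2a, a complexin of the presynaptic ending, showed a smaller difference. It had 10.05 and 10.16 on the morphant arrays and 9.89 and 9.79 on the control arrays. The groups were separate by 0.155, with a spread of 0.11 between the morphant arrays and 0.10 between the controls. The cplx2a difference of 0.26 ± 0.16 (SE, 1.197-fold, limma adjusted p = 0.484) had a 95% interval of −0.16 to 0.68 on the log2 scale.

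The fatty acid binding genes did not share this direction. fabp7a, the brain-type protein of radial glia and neural progenitors, had 10.17 and 9.49 on the morphant arrays and 9.40 and 11.25 on the control arrays. Control replicate 2 was the highest and control replicate 1 the lowest of the 4. Control replicate 1 minus control replicate 2 was −1.85, the widest difference between replicates in the set. Its difference was −0.50 ± 0.63 (SE, limma adjusted p = 0.744) with a 95% interval of −2.09 to 1.09, and the 4 values with 1 array left out ran from −1.42 (without control replicate 1) to 0.43 (without control replicate 2). Without morphant replicate 1 or 2 the fabp7a difference was −0.84 or −0.16.

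fabp3, the heart and muscle type in mammals, had 12.35 and 12.27 on the morphant arrays and 12.62 and 12.47 on the control arrays. Both morphant arrays were below both controls, and the closest arrays differed by −0.118. The fabp3 difference was −0.23 ± 0.17 (SE, 0.851-fold, limma adjusted p = 0.537), with a 95% interval of −0.65 to 0.19. Skeletal muscle markers lay in the same direction, as given below, and their part in the fabp3 value was not tested.

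rtn1a, a reticulon that in mammals is enriched in neurons and neuroendocrine cells, was lower on both morphant arrays in both of its probe sets. Probe set Dr.4188.1.A1_at had 10.34 and 10.24 on the morphant arrays and 10.82 and 10.45 on the control arrays. In Dr.4188.2.S1_at, rtn1a had 8.78 and 8.47 on the morphant arrays and 8.98 and 8.87 on the control arrays. The closest arrays of the groups differed by −0.10 and −0.09. Their differences of −0.34 ± 0.20 and −0.30 ± 0.19 (SE) did not pass (limma adjusted p = 0.445 and 0.479), and both 95% intervals reached above 0, to 0.16 and 0.17. With 1 array left out rtn1a stayed below 0, between −0.53 and −0.16 in the first probe set (without control replicate 2 and 1) and between −0.45 and −0.15 in the second (without morphant replicate 1 and 2).

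**Figure D2:**
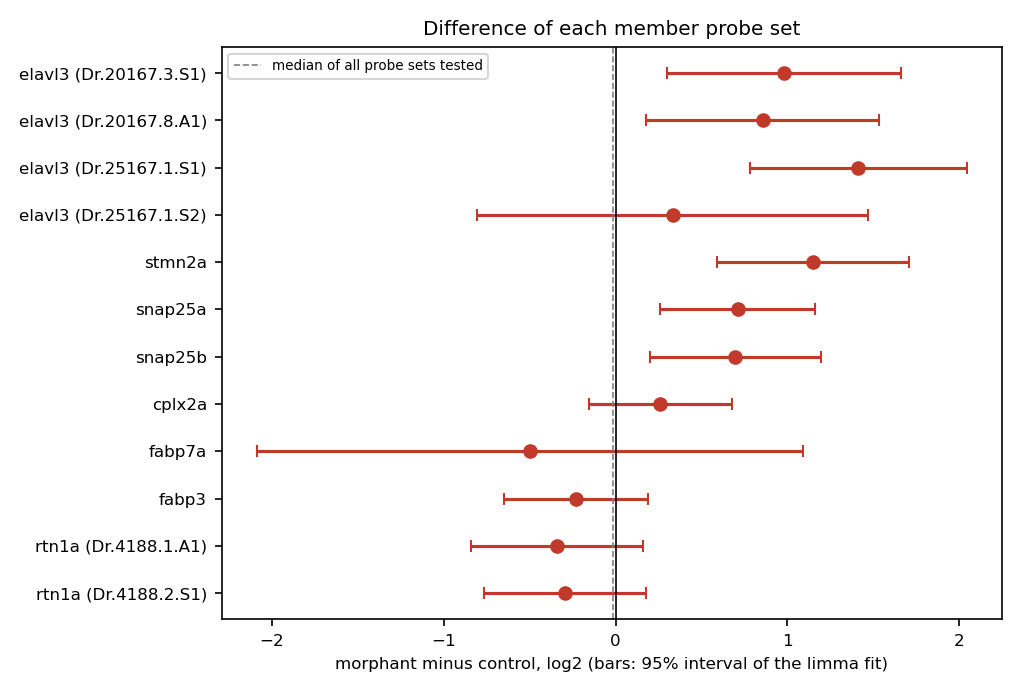
Difference between morphant and control means (log2) for each of the 12 probe sets, with the 95% interval of the limma fit (n = 2 arrays each). The dashed line is the median of all probe sets tested. Intervals of stmn2a, snap25a, snap25b and 3 of the 4 elavl3 probe sets lie above 0, and the other 6 include it.

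The replicates of a group also differed from each other. In 11 of the 12 probe sets control replicate 1 was above control replicate 2, fabp7a being the exception, where 50.9% of all probe sets tested had that order. The count takes each of the 4 elavl3 and 2 rtn1a probe sets on its own. Of the 91 genes tested in the 6 neuronal lists described below, 55 had that order. The largest such gaps among the higher genes were 1.09 in elavl3 Dr.25167.1.S2_at, 0.71 and 0.70 in the Dr.20167 probe sets of elavl3, and 0.49 in stmn2a. The median gap over all probe sets, without its sign, was 0.191. Morphant replicate 1 was above morphant replicate 2 in 9 of the 12, against 52.6% of all probe sets.

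The other genes of the same roles were taken from 9 lists chosen by function, with the brightest probe set of each gene. The 6 neuronal lists hold RNA-binding factors, axon cytoskeleton, synaptic vesicle proteins, transmitter enzymes and transporters, receptors and channels, and transcription factors. Of 299 symbols listed, some of them aliases of one gene, 148 genes had a probe set and 91 passed the filter on dim probe sets. By the adjusted test 1 passed as higher, elavl2, and 0 as lower, where 2.49% and 0.120% of all probe sets tested did. The filter kept genes by their mean over all arrays, and 4 of the 91, elavl2 among them, passed it only through their morphant signals, so the counts of tested genes are no support for a direction. In addition, 21 of the 148 were no brighter than the background controls on every array. The median difference of the 91 was 0.36 (log2), and 68 of them were above 0, where 48.0% of all probe sets tested were. Without the members it was 0.33 over 86 genes, 63 of which were above 0. With no filter, the 148 had a median of 0.29 and 100 were above 0. The lists were chosen with earlier results of these data known, so these counts too are no support for a direction. The 48.0% counts every probe set tested, and the lists count 1 per gene.

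Among 11 RNA-binding and splicing factors, 10 were above 0 and the median was 0.38, or 0.25 without control replicate 1. The gene past the threshold was elavl2 (HuB), another ELAV protein, with signals of 7.12 and 7.04 on the morphant arrays and 4.48 and 2.88 on the control arrays. Both control signals were no brighter than the brightest background control of their array. With each control array at its brightest background control or the probe set itself, whichever was higher, elavl2 was 6.75-fold higher in the morphants. This fold is a floor only for the background on the control arrays, and it does not allow for the spread between arrays. The limma adjusted p of 0.0427 is that of the fitted difference, 3.40 ± 0.52 (SE, log2), which uses the control signals as measured. The confidence interval of that fit began at 2.09 (log2). The control mean of elavl2, 3.68, was below the lowest mean kept by the filter, 5.10. Its mean over all arrays was 5.38, so elavl2 was tested only because its morphant signals were high, and its p is not independent of that. With elavl2 at the 6.75-fold value the list's median is the same. Its call was lost without morphant replicate 1 or 2, where no probe set on the array passed, and under 5 other settings. Among these were no filter and unmoderated p-values, which also called no probe set, and quantile scaling (limma adjusted p = 0.0522). Over the 15 alternatives that kept elavl2, its adjusted p ran from 0.00270 to 0.406. The splicing factor rbfox2 had 0.90 ± 0.27 (SE, limma adjusted p = 0.186; 0.545 without morphant replicate 1), and its second probe set gave 0.33.

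The growth cone and axon list had 16 of 20 genes above 0 and a median of 0.33, or 0.20 with no filter on dim probe sets, and 0 were past the threshold. prph, the intermediate filament peripherin of peripheral neurons, had 7.84 and 8.20 on the morphant arrays and 6.64 and 5.23 on the control arrays. Its groups were separate, with a difference of 2.09 ± 0.47 (SE, limma adjusted p = 0.106). The other 3 prph probe sets were no brighter than the background controls on all 4 arrays. The stathmin stmn4 had 7.60 and 7.66 on the morphant arrays and 6.68 and 5.70 on the control arrays (difference 1.44 ± 0.34, limma adjusted p = 0.115). As in stmn2a, control replicate 2 was the lowest array for both genes, and without it prph had 1.38 and stmn4 0.96. tubb2b and marcksl1b, the brightest of the list, had 0.09 ± 0.17 and 0.55 ± 0.16, and tubb2b lay between −0.0059 and 0.19 with 1 array left out.

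Synaptic vesicle and SNARE genes had a median of 0.41 over 22 genes (0.27 without control replicate 2), 16 of them above 0 and 0 past the threshold. Synaptophysin a (sypa), a vesicle membrane protein, had 8.48 and 8.23 on the morphant arrays and 7.54 and 7.50 on the control arrays (difference 0.84 ± 0.18, limma adjusted p = 0.0916). nsfa, the ATPase that takes SNARE complexes apart, had 8.14 and 8.23 on the morphant arrays and 7.11 and 7.48 on the control arrays (0.89 ± 0.20, limma adjusted p = 0.0985; its second probe set gave 0.73). Both genes were separate between the groups. napab, one of the brightest, had −0.10 ± 0.18, or −0.26 and 0.05 without morphant replicate 1 and 2.

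Genes of transmitter synthesis and transport had 7 of 8 above 0, a median of 0.51 and 0 past the threshold. The inhibitory genes were close together: the GABA-making enzymes gad1b and gad2 had 0.48 ± 0.16 and 0.53 ± 0.19, and the vesicular GABA transporter slc32a1 had 0.59 ± 0.18 (SE, limma adjusted p between 0.192 and 0.237 for the 3). For slc32a1 the signals were 9.61 and 9.37 on the morphant arrays and 8.81 and 8.99 on the control arrays. Receptors and channels had 6 of 10 above 0, a median of 0.41 and 0 past the threshold, but the median was −0.16 with the dimmest 50% of probe sets removed. That list also counts chrna1 (−0.57 ± 0.47), an acetylcholine receptor subunit of muscle. The sodium channel scn8aa had 0.66 ± 0.17, the NMDA receptor subunit grin1a 0.82 ± 0.23 and the synaptic adhesion gene nrxn1a 0.77 ± 0.25, while the brightest, the sodium pump subunit atp1a3a and the GABA receptor subunit gabrb2a, had −0.47 ± 0.20 and −0.16 ± 0.18. Without morphant replicate 2 nrxn1a had 0.49, atp1a3a −0.31 and gabrb2a −0.30, and gabrb2a had −0.0229 without morphant replicate 1 and −0.09 without control replicate 2. The list of transcription factors of neurons and their progenitors had a median of 0.10 over 20 genes, 13 above 0 and 0 past the threshold. Its median was 0.23 without morphant replicate 2 and 0.0273 after median centring. It also counts ntn1a (−0.03 ± 0.22), which encodes a secreted guidance protein. sox11a had 0.75 ± 0.17 (limma adjusted p = 0.0995), with 0.30 in another probe set, en2a 2.56 ± 0.83 with 1 control array no brighter than the background controls, sox3 −0.53 ± 0.25 and eomesa −0.37 ± 0.35. en2a had 1.26 without control replicate 1, the array at background, and 3.86 without control replicate 2. Its control mean of 4.57 was below the lowest mean kept by the filter, so en2a too was tested only through its morphant signals. Without morphant replicate 1 and 2, sox3 had −0.81 and −0.26 and eomesa −0.87 and 0.13. Another probe set annotated to sox3 had a larger difference, −1.03 ± 0.27 (SE, limma adjusted p = 0.142), and a further one was too dim to be tested.

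Glial genes, among them fabp7a, had a median of −0.22 over 19 genes, with 7 above 0 and 12 below. That median was 0.0101 without control replicate 2, 0.00115 without morphant replicate 2 and −0.37 without morphant replicate 1. s100b, a calcium-binding protein used as a glial marker in mammals, rose: its signals were 11.19 and 10.77 on the morphant arrays and 8.10 and 8.25 on the control arrays (2.80 ± 0.21, limma adjusted p = 0.0153). It was the single gene of the list past the threshold, where 2.49% of all probe sets tested passed as higher. Its call too was lost without morphant replicate 1 or 2, where no probe set on the array passed, so the loss is not particular to s100b. egr2b, a factor of the hindbrain and of Schwann cells, had 1.17 ± 0.20 (limma adjusted p = 0.0567). Its control mean of 4.996 was below the lowest mean kept by the filter, 5.10. egr2b was therefore tested only because its morphant signals were high, and its p is not independent of that. The lipid carrier apoeb had −1.08 ± 0.37. Of the brightest, the lipocalin gene ptgdsb.1 had 0.99 ± 0.34 and the Hes-type factor her6 0.23 ± 0.18. Without control replicate 2 apoeb had −0.60 and her6 0.13, without control replicate 1 ptgdsb.1 had 0.51, and without morphant replicate 1 her6 had 0.15. gfap, the intermediate filament of radial glia, had 8.53 and 8.02 on the morphant arrays and 8.66 and 7.86 on the control arrays, and its groups overlapped.

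Among 8 fatty acid and retinoid binding proteins, the family of fabp7a and fabp3, 2 were above 0 and the median was −0.37, with 0 past the threshold. With 1 array left out it lay between −0.83 (without control replicate 1) and −0.0558 (without control replicate 2), and it was −0.82 without morphant replicate 1 and −0.17 without morphant replicate 2. The liver and gut form fabp1b.1 had −1.47 ± 0.43, the retinol carrier rbp2a −0.95 ± 0.33, and the retinoic acid carrier crabp2a 1.39 ± 0.33, the last with 1 control array no brighter than the background controls, so that its difference is a fitted value. The control mean of crabp2a, 4.75, was below the lowest mean kept by the filter, so crabp2a was tested only through its morphant signals. Without morphant replicate 2 fabp1b.1 had −0.83, and without control replicate 2 rbp2a had −0.58. Reticulons and other proteins that shape the endoplasmic reticulum, the family of rtn1a, had a median of −0.15 over 12 genes, 5 above 0 and 0 past the threshold, and it was −0.00995 without control replicate 1 and −0.0851 without morphant replicate 2. rtn4a had −0.20 ± 0.17 and reep5 −0.51 ± 0.23, whereas reep2 had 0.48 ± 0.16 and the paralog rtn1b 0.31 ± 0.18. Without morphant replicate 1 and 2, reep5 had −0.24 and −0.78, and rtn4a had −0.12 without control replicate 1 or morphant replicate 2.

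**Figure D3:**
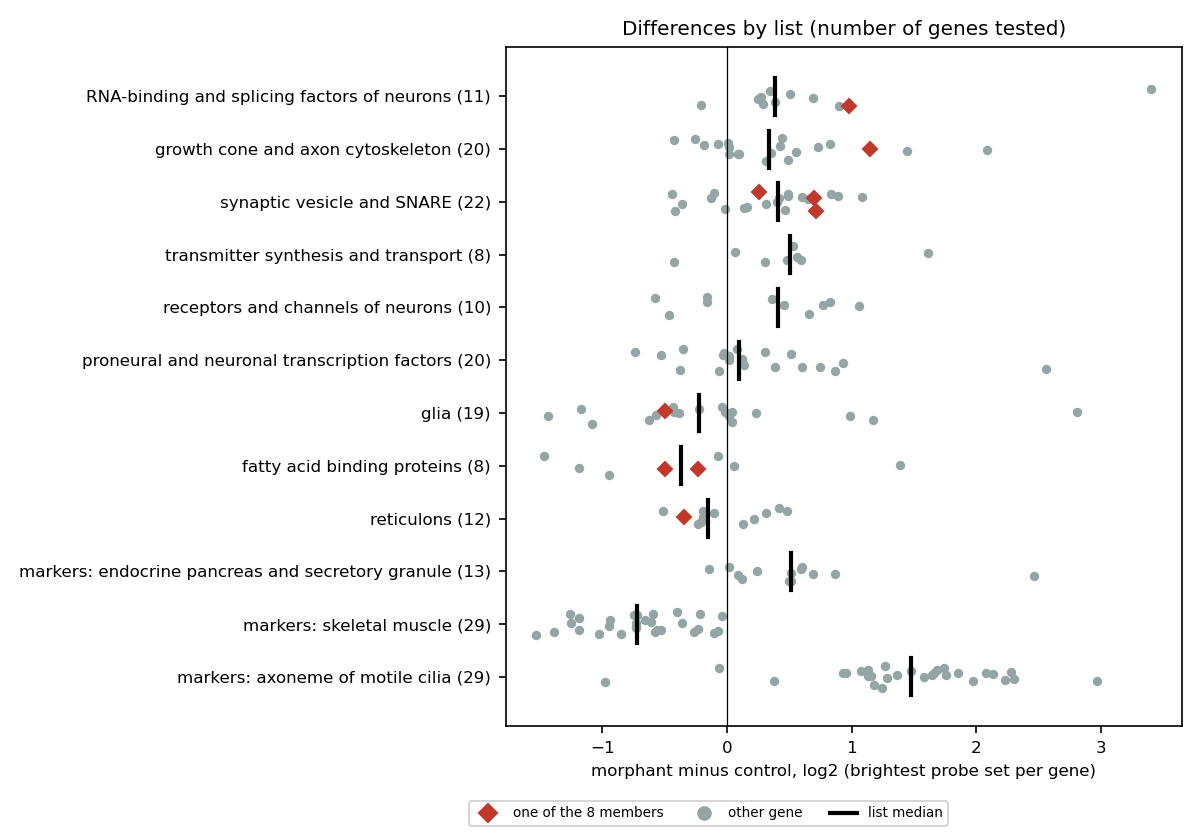
Difference between morphant and control means (log2) of each gene tested, by list, on the brightest probe set. Diamonds are the 8 genes of this account, grey points other genes, and black bars list medians; elavl2 and a few other dim genes are at their fitted values. The 6 neuronal lists have medians between 0.10 and 0.51, and those of glia, fatty acid binding proteins and reticulons lie between −0.37 and −0.15.

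Markers of other cell types differed between the arrays as well. Of 9 neuron markers 7 were measured, and 4 of these are members (elavl3, stmn2a, snap25a, snap25b). The summed linear signal of the other 3, elavl4, gap43 and syt1a, was 991 and 1166 on the morphant arrays and 872 and 536 on the control arrays. Endocrine pancreas and secretory granule genes had a median of 0.51 over 13 genes, or 0.32 without control replicate 1. Of the 13, 12 were above 0 and 0 passed the threshold. neurod1, isl1a and pax6b among them are also in the list of neuronal transcription factors. From 26 symbols listed, 16 genes were measured, with summed signals of 5655 and 5268 on the morphant arrays and 3791 and 4045 on the control arrays, and 1 of the 16 was no brighter than the background controls throughout. A shorter set of 10 endocrine pancreas markers had 8 measured. They summed to 1203 and 1332 on the morphant arrays and 724 and 1128 on the control arrays. Of the 6 glial markers 4 were measured, and the 3 other than fabp7a (gfap, mbpa and sox10) summed to 443 and 305 on the morphant arrays and 447 and 280 on the control arrays. Most of that sum is gfap. mbpa was no brighter than the background controls on both control arrays and sox10 on control replicate 1, and neither passed the filter. myb, whose promoter drives the sort reporter, had log2 signals of 11.03 and 10.88 on the morphant arrays and 11.54 and 11.21 on the control arrays (difference −0.42 ± 0.19, limma adjusted p = 0.349). Insulin (ins) had 8.88 and 7.20 on the morphant arrays and 5.39 and 5.76 on the control arrays, with 2.46 ± 0.55 between them (limma adjusted p = 0.104; 1.62 without morphant replicate 1). The granule gene chga had 6.75 and 7.09 on the morphant arrays and 6.27 and 6.18 on the control arrays. Glucagon (gcga) had 6.89 and 8.33 on the morphant arrays and 6.49 and 9.01 on the control arrays. Its groups overlapped (difference −0.14 ± 0.91).

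Skeletal muscle genes lay the other way. All 29 tested were below 0, the median was −0.72 and 0 passed the threshold; control replicate 1 was above control replicate 2 in 29 of the 29. Without control replicate 1 or morphant replicate 2 the muscle median was −0.38 and 2 of the 29 were above 0. Those of smallest p were the glycolytic gene pgam2 (−1.39 ± 0.24), the Z-disc gene ldb3a (−1.26 ± 0.24) and the myogenic factor myod1 (−1.19 ± 0.22), while the brightest, actc1b and tnnc2.2, had −0.07 ± 0.23 and −0.27 ± 0.22, and actc1b was 0.16 and 0.08 without control replicate 1 and morphant replicate 2, where tnnc2.2 was −0.0997 and −0.0682. From 52 symbols listed, some of them aliases, 32 genes were measured, and their summed signal was 166798 and 132211 on the morphant arrays and 218943 and 165046 on the control arrays. Of the 32, 2 were no brighter than the background controls throughout, as were 0 of the 31 motile cilia markers measured. The list of motile cilia markers appears in the figures as axoneme of motile cilia. Of its 29 genes tested, 27 were above 0 and 2 below, tekt3 (−0.98 ± 0.21) and spag1a (−0.07 ± 0.22). In the adjusted limma test 20 passed as higher and 0 as lower, where 2.49% and 0.120% of all probe sets tested did. The filter kept 1 of these 29 only through its morphant signals. The marker lists too were chosen with earlier results of these data known, so their counts are no support for a direction. The median of the 29 was 1.48. From 64 symbols, 31 genes were measured. Their summed signals were 46757 and 47765 on the morphant arrays and 18784 and 17011 on the control arrays. The part of these markers, and of the spike-in signals, in the neuronal values was not tested.

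**Figure D4:**
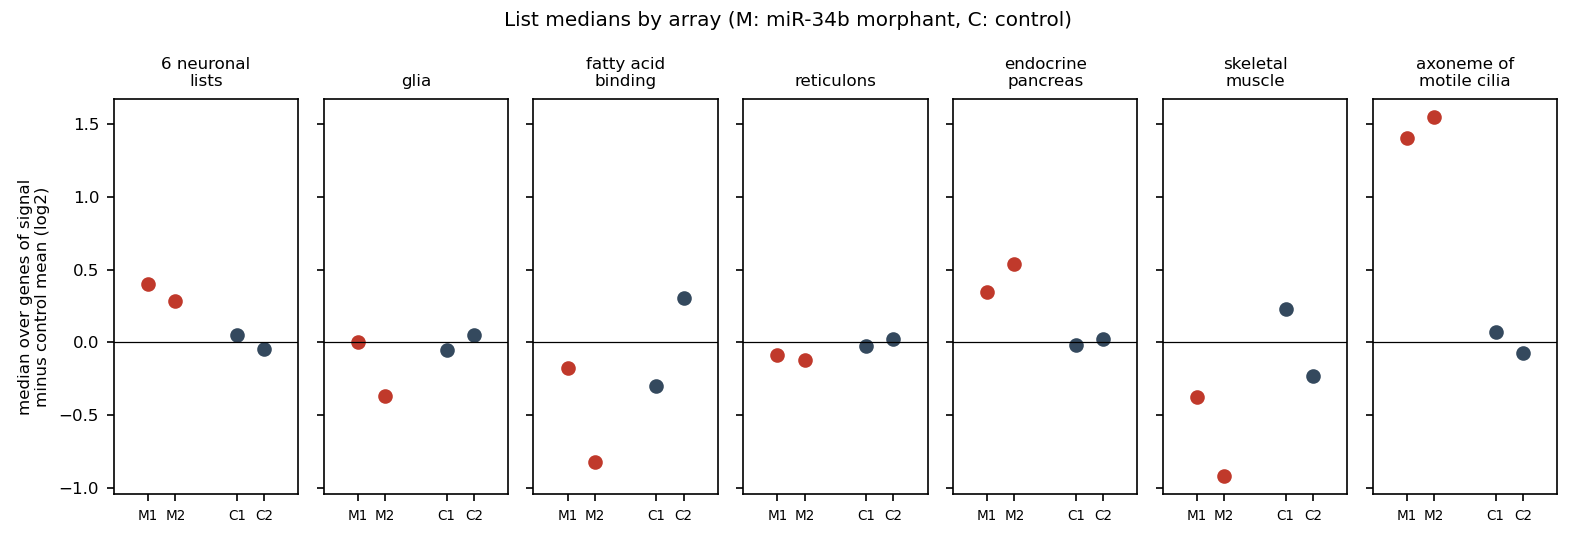
For each list, the median over genes of the log2 signal minus the gene's control mean, on each array (M1 and M2 are morphant, C1 and C2 control). The neuronal lists were at 0.40 and 0.29 on the morphant arrays and 0.05 and −0.05 on the control arrays, while skeletal muscle was at −0.38 and −0.92 on the morphant arrays and 0.23 and −0.23 on the control arrays. The control values of a list mirror each other around 0 by construction, because the control mean is subtracted.

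The genes whose pattern over the 4 arrays came closest were found for the 6 probe sets that spanned at least 1 log2 unit, by the Euclidean distance between profiles centred on their own means. With 4 arrays, many genes lie close to a given profile, so these are descriptions. Closest to elavl3 Dr.20167.8.A1_at were lmo3, a LIM-only protein, and tspan7, a tetraspanin, at distances of 0.03 and 0.09. For elavl3 Dr.20167.3.S1_at they were aqr and map9 (0.10 and 0.15), and 236 genes lay within 0.5. The genes hoxb5b and amy2al1 followed elavl3 Dr.25167.1.S1_at (0.05 and 0.11), and dync1i2b and pdgfrl followed Dr.25167.1.S2_at (0.08 and 0.15). stmn2a was matched by pierce1 and zgc:77614 (0.10 and 0.11), with 250 genes within 0.5.

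For fabp7a the closest gene was glula, a glutamine synthetase of glia, at a distance of 0.26. glula had 8.71 and 8.21 on the morphant arrays and 8.06 and 9.64 on the control arrays, and like fabp7a it was highest on control replicate 2 and lowest on control replicate 1. The next was si:ch211-161h7.5, at 0.36. Within 0.5 of fabp7a there were 10 genes.

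**Figure D5:**
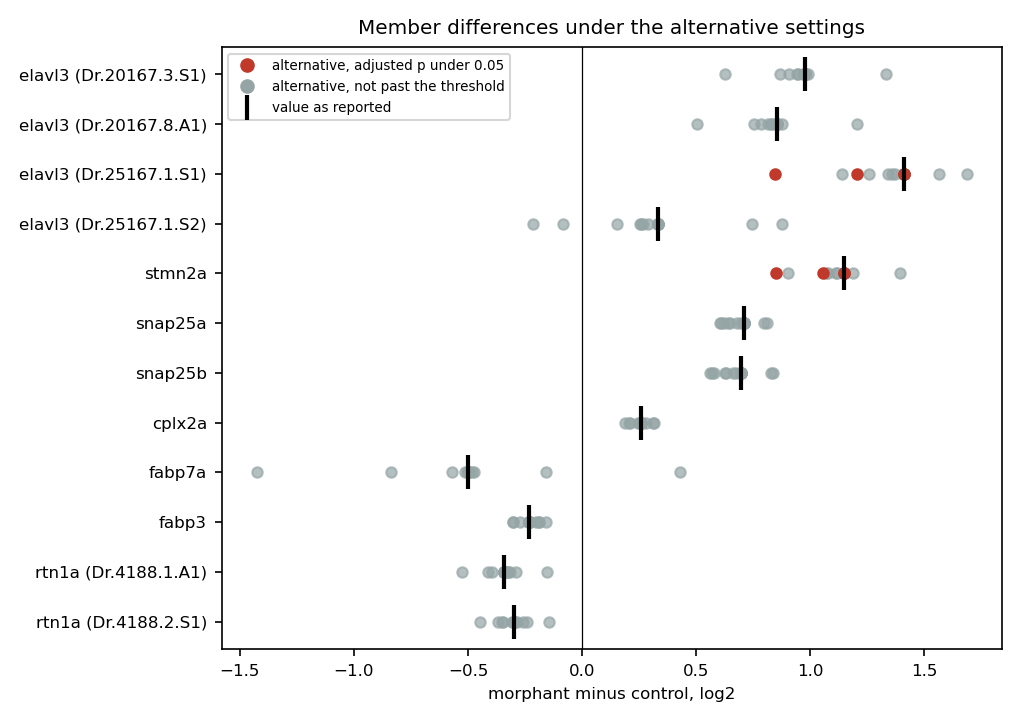
Difference between morphant and control means (log2) of the 12 probe sets under the alternative settings (points) and as reported (black bar). Points in red are past the adjusted threshold of 0.05, which occurs for stmn2a and for elavl3 probe set Dr.25167.1.S1 under 4 settings each. Values of fabp7a and of elavl3 probe set Dr.25167.1.S2 lie on both sides of 0.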

How the data were processed

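RNA of sorted GFP-positive cells was amplified and hybridised to Affymetrix zebrafish arrays, 2 per group. The values are log2 signals per probe set as deposited by the authors. Per the submitters' processing notes MAS5 was used, with no version given. With 2% trimmed from each tail, the mean linear signal came to 500.1 on every array, so arrays had been scaled to a common level. Detection calls were not used here. The 115 control probe sets and the lowest 25% of the other 15502 by mean over the arrays were left out, which left 11626. Groups were compared on the log2 values with limma 3.58.1 in R 4.3.3 (1 group term, eBayes without trend). Benjamini-Hochberg adjustment was over all probe sets tested. The SEs, intervals and p-values are moderated: each variance is drawn toward a common value, with 3.28 prior and 2 residual degrees of freedom. The fit was checked on data simulated from the fitted variance model with independent errors, so this check does not cover departures from that model. Positive differences are higher in morphants. The number of arrays limits the precision.

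The annotation gives 10795 probe sets 1 symbol, 135 several and 4572 none. Symbols were updated through the Entrez numbers of a RefSeq gene table (10711 matched). The members and gene lists were chosen with earlier results of these data known. Named from the 9 lists are genes past the threshold, the 3 of smallest p and the 2 brightest. From the marker lists only some of these are named. The genes elavl4, gfap, rtn1b, tekt1, tekt3, spag1a, gcga, ntn1a and chrna1 were chosen after their values were seen. Alternatives covered the pseudocount, filter, scaling, variance prior, array weights, replicate block and each array left out. The design text speaks of independent biological sets, and no label ties equal replicate numbers to one set. A heart marker list is in the gene lists too: its 4 tested genes had a median of −1.32, with 0 past the threshold, and of −0.13 without control replicate 1, −0.26 without morphant replicate 2 and −2.02 and −2.09 without the others.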

Additional observations from a re-analysis of the deposited data

How the results depend on the processing

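Over 190 refits of the 12 probe sets, 3 changed sign and 8 passed the threshold. The sign changed in elavl3 Dr.25167.1.S2_at without control replicate 2 (−0.215) and without morphant replicate 1 (−0.083), its values over the 4 arrays left out ranging from −0.215 to 0.877. In fabp7a it changed without control replicate 2 (0.428), over a range of −1.42 to 0.428. The number of the 12 past the threshold was 2 with a pseudocount of 16, 2 with a pseudocount of 64, 2 with a trend in the variance prior (stmn2a and elavl3 Dr.25167.1.S1_at each time), and 1 with the dimmest 50% removed (stmn2a). With the replicate block it was 1 (elavl3 Dr.25167.1.S1_at, adjusted p = 0.0485). The deviations of equally numbered arrays correlated at 0.02 over all probe sets, and no label says that the numbers mark a shared set, so the numbers were not used to pair arrays. That value does not speak for single lists. Summed skeletal muscle markers were higher on replicate 1 in both groups (96021 and 74322 in morphants, 116289 and 90413 in controls). Summed neuron markers were higher on replicate 1 in the controls only (2922 and 3083 in morphants, 2101 and 1442 in controls). The block gave 196 higher and 11 lower calls over all probe sets. It changed no other call of the 12.

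Calls over all probe sets were 0 higher and 0 lower without a filter (1380 and 647 at unadjusted p under 0.05) and with unmoderated p-values (935 and 494). They were 495 and 81 with a pseudocount of 64, and 483 and 103 with the trend. Lower calls were 34 with a pseudocount of 16, 63 with the lowest 50% left out, 7 under cyclic loess and 8 under quantile scaling. Leaving out 1 array gave 0 to 53 higher and 0 to 7 lower. The cause was not tested.

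Of 170 list medians, 145 moved by less than the spread between replicates, and 3 changed sign. Leaving out 1 array gave ranges of 0.28 to 0.40 for the 6 neuronal lists together, 0.25 to 0.52 for RNA-binding factors, 0.27 to 0.49 for synaptic vesicle genes, 0.0900 to 0.23 for transcription factors, −0.37 to 0.0101 for glia, −0.83 to −0.0558 for fatty acid binding proteins and −0.14 to −0.00995 for reticulons. With the lowest 50% left out the medians were 0.44 for the 6 lists together, 0.51 for RNA-binding factors, −0.16 for receptors and channels and −0.195 for reticulons. A pseudocount of 64 gave 0.235 for the 6 lists, 0.245 for synaptic genes and 0.23 for receptors. Median centring gave 0.34 for synaptic genes, 0.0273 for transcription factors and −0.22 for reticulons, and quantile scaling 0.34 for synaptic genes. With every probe set counted, receptors had 0.23 and reticulons −0.195.

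The 32 other genes named from the 9 lists by p or brightness gave 502 refits, of which 473 kept direction and side of the threshold. A further 15 passed it newly, 11 no longer passed (7 of elavl2 and 4 of s100b) and 3 changed sign. With 1 array left out, tubb2b ranged from −0.0059 (without control replicate 2) to 0.190, napab from −0.258 to 0.0501 and eomesa from −0.874 to 0.127, the highest for the last pair without morphant replicate 2. The call of elavl2 was lost with array weights, cyclic loess or quantile scaling, no filter, unmoderated p-values, or a morphant array left out, and that of s100b with no filter, unmoderated p-values, or a morphant array left out. With no filter, with unmoderated p-values and with a morphant array left out, no probe set on the array passed. A call lost there is therefore not particular to these genes. Among the marker genes, actc1b was 0.158 and cmlc1 0.402 without control replicate 1, and actc1b 0.0815 and myl7 0.141 without morphant replicate 2. A pseudocount of 64 brought elavl2 to 1.34, prph to 1.33, stmn4 to 0.92, en2a to 1.11, egr2b to 0.51 and crabp2a to 0.57.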
